A study of Homo sapiens with 6 samples.

Results

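Messenger RNA of 36 human genes was followed, the enzymes and transporters of glycolysis together with genes of the hypoxia response, in fibroblasts driven into senescence by an activated RAS. The set was defined by gene symbol: transporters, glycolytic enzymes with their isoforms, pyruvate dehydrogenase kinases, oxygen-sensing factors and known hypoxia-induced genes. A probe set of the array, a group of short probes against 1 transcript, matched 33 of the 36 genes. CA9, SLC16A1 and SLC16A3 matched none in the probe annotation used and were not analysed here. Where several probe sets matched a gene, the one with the highest mean over all 6 samples stood for it. The array held 11963 genes counted in this way.

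WI-38 is a normal diploid fibroblast strain grown from fetal lung. The study compared 3 samples of growing, wild type WI-38 cells (control) with 3 samples of WI-38 cells overexpressing RASv12 and labelled senescent. RASv12 is a constitutively active form of a RAS small GTPase, an oncoprotein that stops the division of normal fibroblasts. Which RAS gene it was derived from is not in the labels. Cells of both groups were cultured at 3% oxygen, and genes were introduced with retroviruses. An empty vector in control cells is not mentioned, so infection and RASv12 may differ together. They also list the dye Cy5 for control and Cy3 for RASv12 samples, although the probe sets are those of a 1-colour Affymetrix array, so whether the dyes differed is itself unclear. If they did, dye and group cannot be told apart. Separate cultures for the samples of a group are not stated, and p-values then measure only the spread between these 6 samples, possibly a technical one.

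Glycolysis splits glucose into pyruvate in the cytosol, and most of its steps can be run by more than 1 isoform, each from its own gene. Pyruvate is reduced to lactate or enters mitochondria through pyruvate dehydrogenase, which the PDK kinases switch off. When oxygen is short, the prolyl hydroxylases (the EGLN proteins) stop marking the alpha subunits of hypoxia-inducible factor (HIF1A, and EPAS1, also called HIF-2 alpha) for destruction. The stabilised factor then binds the DNA core ACGTG or GCGTG and turns on many glycolytic genes, so the enzymes and the hypoxia targets overlap as gene sets. The level of HIF1A is set largely at the protein, which was not measured.

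In RASv12 cells 16 of the 33 measured genes were higher than in control cells, 2 were lower and 15 did not pass. A gene was called where its adjusted p from limma, corrected over all 11963 genes, lay under 0.05. The background was high: 29.5% of all genes were called, 14.0% higher and 15.5% lower. That background held 3606 of 11963 genes at or under the low bacterial controls in both groups, against 2 of the 33. The lists below are set beside the same background. Of all genes with a mean intensity over 1000, 38.2% were called, 19.4% higher and 18.9% lower. Of the 9 glycolysis enzymes at that level 3 rose and none fell. Of the 10 dimmer enzymes 6 rose and none fell, where 13.8% of all genes up to 1000 rose. The median change of the 33 genes was 0.34 on the log2 scale, beside 0.02 over all genes. The largest rises were in HK2, SLC2A3, BNIP3 and ENO2, and the largest fall was in EPAS1. All 3 RASv12 samples lay above all 3 control samples for 20 of the 33 genes, where 19.7% of all genes did so, and below them for 3, where 22.0% did. Those 3 were EPAS1, ADM and PFKL, of which PFKL did not pass. The count of 2 lower went to 1, EPAS1 alone, without control replicate 2 or 3 or RASv12 replicate 1 or 2.

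The samples of both groups expressed fibroblast genes, but not at the same level. All 10 fibroblast markers lay above the low bacterial control probe sets in all 6 samples, and their summed intensity ran from 20205 to 22178 in control and from 9915 to 11384 in RASv12 samples. Of the 10, 7 (COL1A1, COL1A2, THY1, PDGFRB, DCN, LUM and S100A4) were called lower, while VIM, COL6A1 and FAP did not pass. No endothelial marker of 4 and no leukocyte marker of 3 measured lay above the low controls in all 6 samples, with sums of 29.9 to 37.1 and 6.94 to 28.0 in control and 31.1 to 70.8 and 17.8 to 49.9 in RASv12 samples. Of 5 epithelial markers KRT18 did, and the epithelial sum was 182 to 192 in control and 148 to 188 in RASv12 samples. The part of the fibroblast marker shift in the results was not tested. In bulk samples fewer cells of a type and less RNA per cell cannot be told apart. Arrays correlated at 0.975 to 0.987 within groups and at 0.912 to 0.928 between groups.

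Brightness scaling bears on every direction given here. The deposited arrays share a trimmed mean of 100.04 (2% of values trimmed from each end), but the 18 hybridization control probe sets, which report RNA spiked into the hybridization, read 0.34 lower on the log2 scale in RASv12 samples (SD 0.12 over probe sets, lower in 18 of 18, exact permutation p = 0.1, the smallest that 3 against 3 allows). With arrays scaled to those probe sets, the median over all genes went from 0.02 to 0.20. Under it 2827 genes were called higher and 1053 lower, against 1670 and 1860. Of the 33 genes studied here, 23 were then called higher and 1, EPAS1, lower, with a median of 0.66. Every gene that was called higher stayed so, and ADM lost its call. Several changes were over 1.5 times larger there: 1.06 for HK1, 0.88 for PGK1, 0.75 for PGAM1 and for TPI1, and 0.71 for HIF1A and for CA12.

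**Figure D1:**
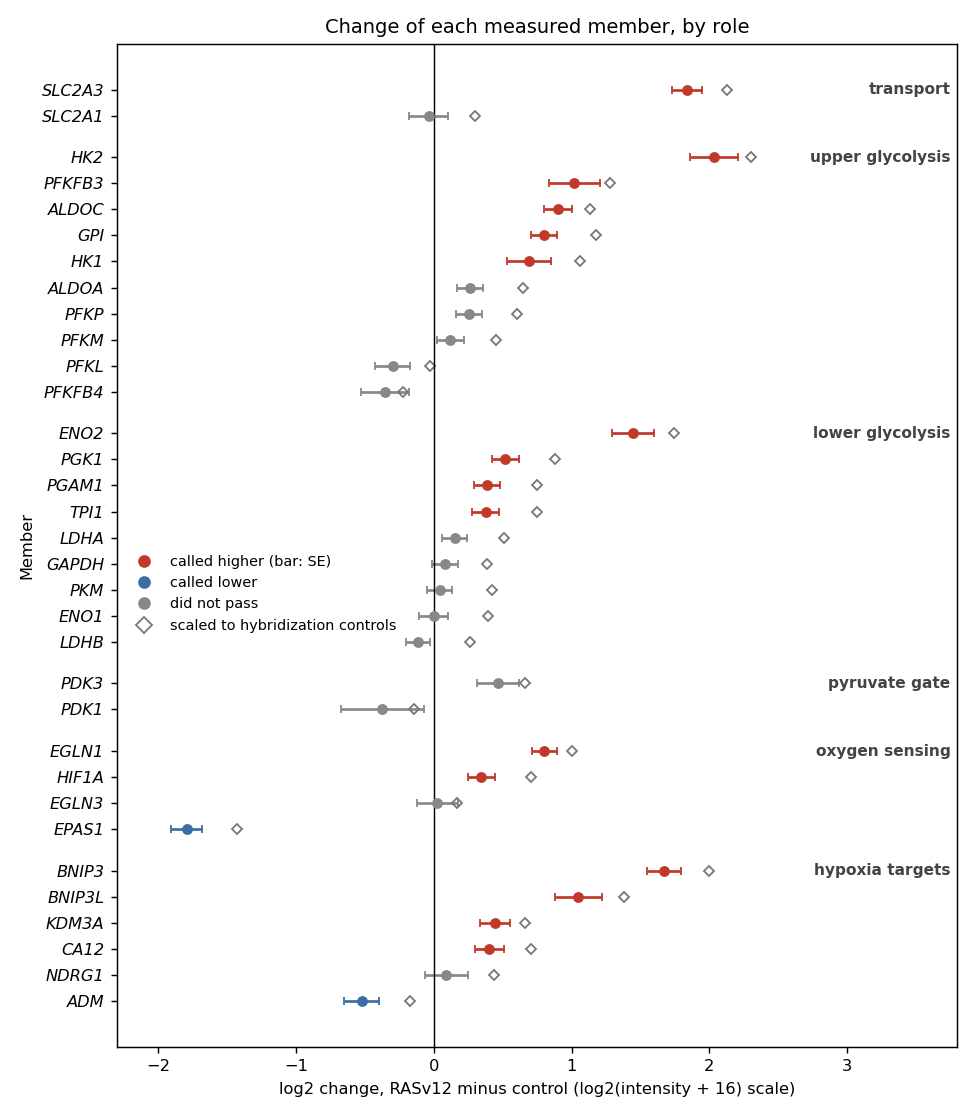
Log2 change of each of the 33 measured genes on the log2(intensity + 16) scale, RASv12 minus control, grouped by role; bars are standard errors (n = 3 samples a group), filled colours give the call and open diamonds the change after scaling to hybridization controls. HK2 (2.04) and SLC2A3 (1.83) lie farthest right and EPAS1 (-1.79) farthest left.

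The promoters of 32 of the 36 genes were in the RefSeq promoter table for GRCh38.p14, and the 250 bases before each start were searched for ACGTG and GCGTG on both strands. ACGTG stood before 18 of the 32 genes and before 27.1% of 9563 genes on the array with a promoter in the table. GCGTG stood before 19 of the 32, beside 49.2%, and the palindrome CACGTG, which contains ACGTG, before 7 of the 32, beside 10.7%. A gene was counted if any of its promoters held the letters. The 32 genes have 60 promoters, against 35116 for 27305 genes in the table, so they had more chances of a match per gene. Counted by promoter, ACGTG stood in 21 of the 60 (35%), beside 18.5% of all 35116. GCGTG stood in 22 (36.7%), beside 32.2%, and CACGTG in 7 (11.7%), beside 6.34%. Of the 14 genes called higher that had a promoter, 9 held ACGTG, as did 7 of the 14 that did not pass and neither of the 2 called lower. CA9 and SLC16A3, which were not measured, held it too. A match describes the letters and is not a binding site shown in these cells. Stretches of 60 bases are shown for 6 genes that rose and for LDHA and GAPDH, which carry the same letters and did not pass. Capitals mark ACGTG and GCGTG, which read CACGT and CACGC where they lie on the other strand. Each stretch is written 5′ to 3′ in the direction of its gene.
HK2 (chr2:74834045-74834104, plus strand): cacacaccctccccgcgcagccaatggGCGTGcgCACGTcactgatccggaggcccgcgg
BNIP3 (chr10:131982020-131982079, minus strand): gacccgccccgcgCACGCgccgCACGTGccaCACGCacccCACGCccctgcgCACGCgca
PGK1 (chrX:78104019-78104078, plus strand): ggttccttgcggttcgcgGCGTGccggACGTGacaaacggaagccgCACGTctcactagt
ENO2 (chr12:6914432-6914491, plus strand): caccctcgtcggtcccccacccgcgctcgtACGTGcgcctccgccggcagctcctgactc
EGLN1 (chr1:231422288-231422347, minus strand): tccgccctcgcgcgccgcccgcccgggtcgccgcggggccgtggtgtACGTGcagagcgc
ALDOC (chr17:28577086-28577145, minus strand): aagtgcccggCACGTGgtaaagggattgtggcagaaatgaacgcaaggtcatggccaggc
LDHA (chr11:18394451-18394510, plus strand): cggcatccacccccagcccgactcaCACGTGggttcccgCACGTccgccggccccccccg
GAPDH (chr12:6535153-6535212, plus strand): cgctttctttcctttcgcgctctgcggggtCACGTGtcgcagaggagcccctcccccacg

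Of the measured glucose transporter transcripts, SLC2A3 rose and SLC2A1 did not pass. SLC2A3 (GLUT3), a high-affinity glucose transporter, had intensities of 111, 124 and 137 in control and 523, 463 and 447 in RASv12 samples. Every RASv12 sample lay far above the highest control sample. The means were 124 ± 12.7 (SD, n = 3) and 478 ± 40.0, a ratio of 3.85, and the log2 change was 1.83 ± 0.11 (SE, limma adjusted p = 3.8e-05), rank 149 among the rises of all genes. All 3 probe sets annotated to it alone were called higher, by 1.83 and 0.68 on those measured in both groups. The third, not well above background in control samples, was at least 2.13-fold higher. Called higher too were 2 probe sets shared with its near-identical neighbour SLC2A14, by 1.58 and 1.04, where the signal of the 2 genes cannot be separated. The probe set behind 1.83 carries the array maker's mark for probes that may match related transcripts, so a part from SLC2A14 was not tested. SLC2A1 (GLUT1), the widespread basal glucose transporter, gave 223, 263 and 253 in control and 199, 265 and 268 in RASv12 samples. These groups overlapped, and the change of -0.04 ± 0.14 did not pass (limma adjusted p = 0.88). Its sign turned with the scaling.

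Early steps changed at hexokinase, phosphoglucose isomerase and the regulator PFKFB3, while the phosphofructokinase subunits did not pass. In all, 5 of the 10 genes (50%) of the upper, sugar-phosphate part of glycolysis rose and none fell, beside 14.0% and 15.5% of all genes. The median change of the 10 was 0.48. HK2, the inducible hexokinase that phosphorylates glucose at the mitochondrial surface, read 52.4, 46.0 and 56.2 in control and 333, 255 and 198 in RASv12 samples. The groups were far apart although RASv12 samples varied among themselves. From 51.6 ± 5.13 to 262 ± 67.7 (SD, n = 3) the ratio was 5.08, and the log2 change of 2.04 ± 0.17 (SE, limma adjusted p = 2.1e-04) ranked 118 among the rises of 11963 genes. A second HK2 probe set was at or under the level of the low bacterial controls, 27.98, in all 6 samples and gives no reading. HK1, the constitutive hexokinase, gave 466, 663 and 629 against 1142, 878 and 907. It did not overlap either and rose by 0.69 ± 0.16 (ratio 1.66, limma adjusted p = 0.016), and with the replicate number as a block its adjusted p from limma was 0.055.

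GPI, which turns glucose 6-phosphate into fructose 6-phosphate, read 598, 653 and 682 in control and 1233, 1131 and 1142 in RASv12 samples. The spread within each group was small beside the gap, a ratio of 1.81 and a log2 change of 0.80 ± 0.094 (limma adjusted p = 9.2e-04). PFKFB3, the kinase that makes fructose 2,6-bisphosphate and so drives phosphofructokinase, gave 82.7, 89.7 and 58.3 against 209, 152 and 144. It rose by 1.02 ± 0.18 (ratio 2.19, limma adjusted p = 0.0060). ALDOC, the brain-type aldolase that splits fructose bisphosphate, read 57.6, 68.7 and 55.7 in control and 126, 115 and 125 in RASv12 samples. It rose by 0.90 ± 0.10, a ratio of 2.01 (limma adjusted p = 8.2e-04).

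The other upper-pathway genes did not pass. The phosphofructokinase subunits changed by 0.26 ± 0.094 for PFKP (limma adjusted p = 0.085), 0.12 ± 0.10 for PFKM (0.43) and -0.30 ± 0.13 for PFKL (0.12). PFKP had all RASv12 samples above control (524, 488 and 507 against 654, 641 and 558) and PFKL had all of them below (144, 127 and 167 against 111, 102 and 124), whereas PFKM overlapped. ALDOA, the muscle-type aldolase, ran at 2136 to 2530.3 in control and 2906 to 2952 in RASv12 samples and gave 0.26 ± 0.096 (limma adjusted p = 0.081). After scaling to the hybridization controls ALDOA, PFKP and PFKM were called higher. PFKFB4, a sister enzyme of PFKFB3, was not well above background: its highest sample, control replicate 2 at 18.6, lay under the highest low bacterial control, 27.98.

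**Figure D2:**
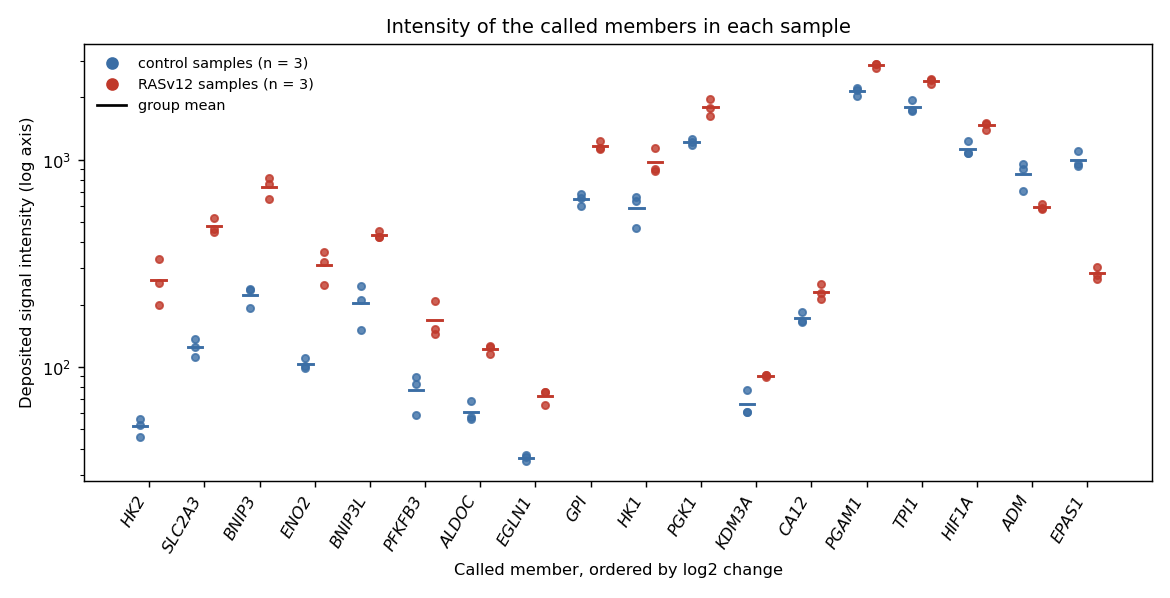
Deposited signal intensity (log axis) of the 18 called genes in each sample, control in blue and RASv12 in red, with the mean of each group as a bar (n = 3). The groups do not overlap in any of the 18 genes, but these were called from the same 6 samples, so separation is largely built in. The gap is wide in HK2 and EPAS1 and narrow in HIF1A and KDM3A.

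In the lower, triose part of the pathway 4 of 9 genes (44.4%) rose and none fell, beside 14.0% and 15.5% of all genes. The median change of the 9 was 0.15. ENO2, the neuronal enolase, showed the largest change there, with 101, 98.4 and 111 in control and 320.0, 249 and 361 in RASv12 samples. The lowest RASv12 sample was above the highest control sample by a wide margin. The means of 103 ± 6.32 and 310 ± 56.7 (SD, n = 3) gave a ratio of 2.99 and a log2 change of 1.45 ± 0.15 (limma adjusted p = 5.1e-04, rank 223 among rises). ENO1, the widespread enolase, gave 2330.3, 2132 and 2412 against 2277, 2409.7 and 2466. Its groups overlapped and the change was 0.00 within an SE of 0.10 (limma adjusted p = 0.998), with a sign that turned with the scaling. ENO1 was called higher after scaling to the hybridization controls (0.40, limma adjusted p = 0.034) and as the mean of its probe sets (0.47, 0.011). It had 2 other probe sets that read 0.87 (called higher over all probe sets, limma adjusted p = 0.030) and 0.55 (0.098), so its probe sets disagree.

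PGK1, which makes the first ATP of glycolysis, read 1183, 1256 and 1223 in control and 1781, 1961 and 1628 in RASv12 samples. It rose by 0.52 ± 0.097, a ratio of 1.47 (limma adjusted p = 0.0071). Its other probe sets gave 0.74 and 0.95, both called, and the remaining one, not well above background in control samples, did not pass. PGAM1, the phosphoglycerate mutase, rose from 2141 ± 92.2 to 2859 ± 74.8 (SD, n = 3), a log2 change of 0.39 ± 0.091 (limma adjusted p = 0.018). TPI1, the triose phosphate isomerase, rose from 1802 ± 123 to 2399 ± 77.0, a log2 change of 0.38 ± 0.097 (limma adjusted p = 0.025). Both had non-overlapping groups with ratios of 1.34 and 1.33. PGAM1 lost its call without control replicate 1, 2 or 3 (limma adjusted p 0.051 to 0.059). TPI1 lost it without control replicate 1 or 3 or RASv12 replicate 1, 2 or 3 (limma adjusted p 0.055 to 0.088). With the replicate number as a block, PGAM1 and TPI1 both lost their calls.

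GAPDH, PKM, LDHA and LDHB did not pass. GAPDH, the triose dehydrogenase often used as a reference transcript, ran from 5045 to 6347 in control and from 5370.4 to 6237 in RASv12 samples, a change of 0.08 ± 0.095 (limma adjusted p = 0.59). PKM, the pyruvate kinase, ran from 2182 to 2295 and from 2278 to 2429.6, a change of 0.04 ± 0.092 (limma adjusted p = 0.79). Both pairs of groups overlapped. A second, dimmer PKM probe set was called lower by -0.55. LDHA, the lactate dehydrogenase subunit that is a textbook HIF target, gave 2927, 2755 and 2877 against 3349, 3087 and 3229, which did not overlap, and a change of 0.15 ± 0.092 (limma adjusted p = 0.27). LDHB, the heart-type subunit, gave 2402, 2523 and 2457 against 2418, 2297 and 2308, a change of -0.12 ± 0.087 (limma adjusted p = 0.38). PKM and LDHA were called higher after scaling to the hybridization controls, and LDHB turned to 0.27 there. The probe sets of GAPDH, ALDOA, LDHB, TPI1, PFKL, CA12, EGLN1 and SLC2A3 used here carry the array maker's mark for probes that may also match related transcripts, and pseudogene copies are known for several of these genes.

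PDK1 and PDK3, kinases that close pyruvate dehydrogenase, did not pass in the main test. PDK2, another of these kinases, is given with the further genes below. PDK1 read 51.3, 98.7 and 84.4 in control and 63.3, 69.8 and 32.8 in RASv12 samples, overlapping groups with a change of -0.37 ± 0.30 (limma adjusted p = 0.42). PDK3 read 22.5, 25.2 and 14.2 in control, where no sample was well above background, and 31.8, 38.8 and 31.0 in RASv12 samples. That is at least 1.20-fold higher, measured against the background level of 27.98, and its adjusted p from limma was 0.059. PDK3 was called in 4 alternatives: after scaling to the hybridization controls (limma adjusted p = 0.013), without the dimmest 25% of probe sets (0.047), with the replicate block (0.037) and without RASv12 replicate 3 (0.042).

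Among the oxygen-sensing genes HIF1A and EPAS1, the 2 alpha subunits, moved in opposite directions. EPAS1 read 932, 1099 and 954 in control and 267, 279 and 303 in RASv12 samples. The groups were far apart and each was tight. From 995 ± 90.6 to 283 ± 18.5 (SD, n = 3), EPAS1 was 3.52-fold lower in RASv12 cells, a log2 change of -1.79 ± 0.11 (limma adjusted p = 4.8e-05) that ranked 169 among the falls of all genes. A second, dimmer EPAS1 probe set gave -0.43 and did not pass (limma adjusted p = 0.34 over all probe sets). HIF1A read 1236, 1074 and 1074 against 1495, 1513 and 1385, without overlap. It rose by 0.34 ± 0.098, a ratio of 1.30 (limma adjusted p = 0.036). That call was lost without control replicate 2 or 3 or RASv12 replicate 1, 2 or 3 (limma adjusted p 0.068 to 0.12) and with median centring (0.055). It was also lost with the replicate number as a block.

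EGLN1 (PHD2), the main prolyl hydroxylase acting on HIF alpha subunits and itself a hypoxia-induced gene, gave 36.6, 37.6 and 35.0 in control and 65.3, 75.6 and 75.3 in RASv12 samples. These low but closely spaced values did not overlap, and EGLN1 rose by 0.80 ± 0.090, a ratio of 1.98 (limma adjusted p = 7.4e-04). EGLN3 (PHD3), another prolyl hydroxylase, was not well above background in either group, with a highest sample of 16.5, and no fold is given.

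Apart from the genes in the groups above, such as EGLN1, the set held 6 measured hypoxia-induced genes outside glycolysis. Of these 6, 4 (66.7%) rose and 1 (16.7%) fell, beside 14.0% and 15.5% of all genes. Their median change was 0.42. BNIP3, a mitochondrial protein that promotes mitophagy, read 192, 234 and 237 in control and 819, 765 and 643 in RASv12 samples. The lowest RASv12 sample was well above every control sample. The means of 221 ± 25.4 and 742 ± 90.1 (SD, n = 3) had a ratio of 3.36, and the log2 change was 1.67 ± 0.12 (limma adjusted p = 1.1e-04, rank 172 among rises). Its other probe set gave 1.51 and was also called. BNIP3L (NIX), its paralog and also a mitophagy receptor, read 151, 211 and 246 against 422, 452 and 422 and rose by 1.05 ± 0.17, a ratio of 2.13 (limma adjusted p = 0.0040). The other BNIP3L probe set gave 0.07 and did not pass (limma adjusted p = 0.70 over all probe sets), so the rise rests on 1 of its 2 probe sets.

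CA12, a membrane carbonic anhydrase that handles acid outside the cell, and KDM3A, a histone H3 lysine demethylase that depends on oxygen, rose by less. CA12 read 183, 166 and 165 against 227, 213 and 250.3, a change of 0.40 ± 0.11 (limma adjusted p = 0.028), and of its 5 probe sets above background in at least 1 sample 2 were called higher and 3 did not pass, over -0.07 to 0.48. KDM3A read 77.6, 60.8 and 60.4 against 89.4, 91.2 and 91.0, a change of 0.44 ± 0.11 (limma adjusted p = 0.022). Neither overlapped between groups. CA12 lost its call without control replicate 2 or 3 or RASv12 replicate 1 or 3 (limma adjusted p 0.052 to 0.090). KDM3A lost its call without control replicate 2 or 3 or RASv12 replicate 1 or 2 (limma adjusted p 0.054 to 0.079). With the replicate number as a block, both lost their calls.

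ADM, the vasodilator peptide adrenomedullin, moved the other way from BNIP3. It read 704, 904 and 949 in control and 577, 587 and 609.6 in RASv12 samples, all below the lowest control sample. The ratio of control to RASv12 was 1.44 and the log2 change -0.52 ± 0.13 (limma adjusted p = 0.021). This fall was lost after scaling to the hybridization controls (-0.17, limma adjusted p = 0.39) and without control replicate 2 or 3 or RASv12 replicate 1 or 2 (0.057 to 0.075). NDRG1, a stress-response gene widely used as a hypoxia marker, gave 276, 265 and 359.8 against 309, 292 and 373, overlapping groups with a change of 0.09 ± 0.16 (limma adjusted p = 0.73).

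**Figure D3:**
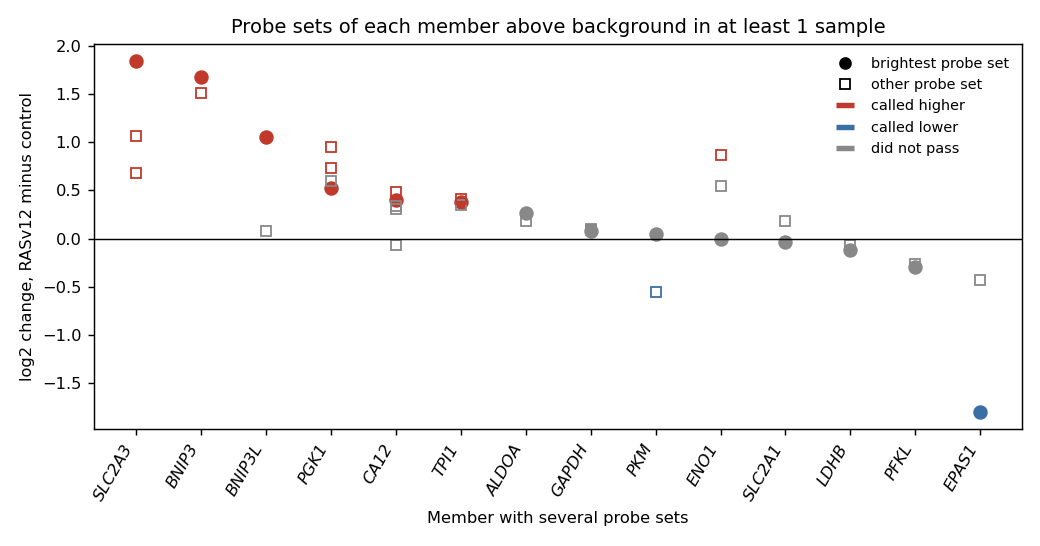
Log2 change, RASv12 minus control, of the probe sets of the 14 genes that had several above background in at least 1 sample; filled circles are the brightest probe set, open squares the others, coloured by call over all probe sets. BNIP3 and SLC2A3 have all these probe sets called higher, while BNIP3L, ENO1 and PKM have probe sets that differ in call.

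Probe sets above background in at least 1 sample gave a second reading of 14 of the genes. In 2 of them (BNIP3 and SLC2A3) all were called in 1 direction, in 7 some were called and some were not, and no gene had probe sets called in both directions. Averaging all probe sets of a gene reduced the change to 1.25 in HK2, 1.19 in SLC2A3, -1.11 in EPAS1 and 0.56 in BNIP3L, all still called, and to 0.26 in CA12, which was not (limma adjusted p = 0.084). With a pseudocount of 64 in place of 16, EGLN1 gave 0.47 and KDM3A 0.29, both still called.

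Isoforms of the same step were then compared, and with them related genes outside glycolysis such as EPAS1 and HIF1A or BNIP3L and BNIP3. The measure was the log2 difference between 2 genes within each array, which shows an unequal change and sets no level of 1 probe set against another. Of 14 pairs listed, 12 could be compared, and in 9 of these both genes were measured above background in both groups. The groups did not overlap in 8 of the 9, beside 56.8% of all pairs among the 7038 genes measured in this way, so separation alone is common on these arrays. With 3 samples against 3 the exact two-sided permutation p cannot go below 0.1, so no pair could pass; the 8 pairs had p = 0.1, adjusted over 12 pairs to 0.11. EPAS1 fell against HIF1A in every RASv12 sample, by -2.23, -2.17 and -2.01 relative to the control mean, where control samples lay between -0.21 and 0.22. The difference of changes was -2.14 ± 0.14 (SE). SLC2A3 shifted upward against SLC2A1 by 1.87 ± 0.19, ENO2 against ENO1 by 1.45 ± 0.16, HK2 against HK1 by 1.34 ± 0.24 and ALDOC against ALDOA by 0.64 ± 0.087. The sizes moved with the processing: as the mean of all probe sets HK2 against HK1 gave 0.56, with the HK2 probe set under background included, and SLC2A3 against SLC2A1 gave 1.12. In the same setting EPAS1 against HIF1A gave -1.45 and ENO2 against ENO1 0.98, both smaller, and ALDOC against ALDOA gave 0.68, slightly larger. Between pseudocounts of 1 and 64, HK2 against HK1 ran from 1.62 to 0.84 and ALDOC against ALDOA from 0.80 to 0.35. As background, SLC2A3, ENO2, HK2 and ALDOC are each known for a narrower tissue distribution than the partner gene.

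The remaining pairs shifted less. BNIP3L against BNIP3 gave -0.62 ± 0.14, PFKP against PFKL 0.56 ± 0.14, and LDHB against LDHA -0.27 ± 0.045. BNIP3L against BNIP3 was -0.46 (exact permutation p = 0.2) with the probe sets of highest mean log2 value and -1.03 as the mean of all probe sets, and PFKP against PFKL was 0.46 (exact permutation p = 0.2) without control replicate 3. For LDHB against LDHA control samples ran from -0.08 to 0.07 and RASv12 samples from -0.29 to -0.24, a narrow spread for a small shift. PFKP and PFKM overlapped, at 0.14 ± 0.11 (exact permutation p = 0.3). No size is given for PDK3 against PDK1, PFKFB4 against PFKFB3 or EGLN3 against EGLN1, since the first gene of each was not well above background in at least 1 group. None of the 9 pairs changed sign in the 16 alternatives that recomputed them, which leave out the fit over all probe sets.

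**Figure D4:**
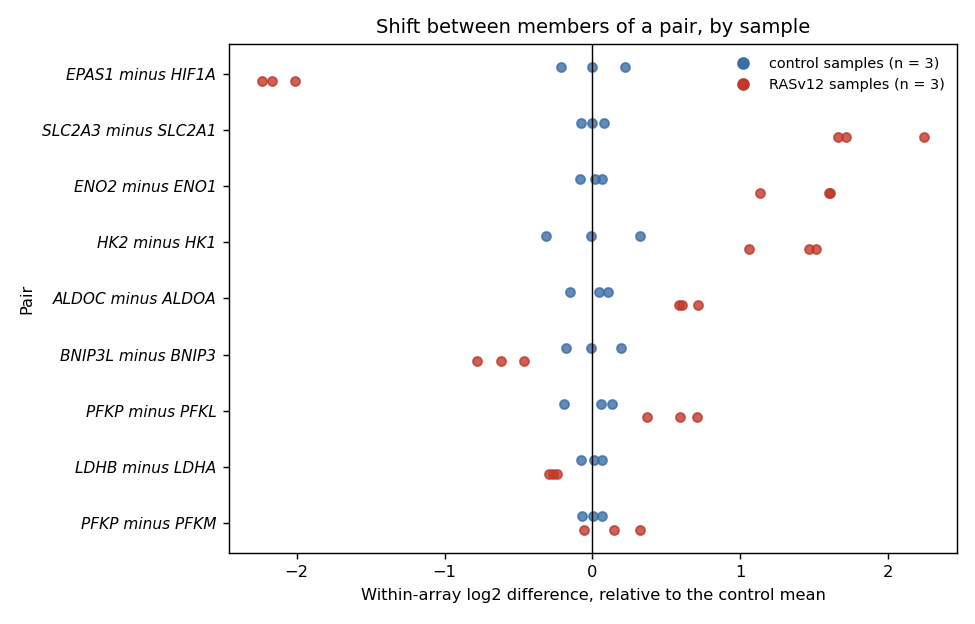
Within-array log2 difference between the 2 genes of each of the 9 pairs with both genes above background, relative to the mean of the control samples, for each control (blue) and RASv12 (red) sample. The groups overlap only in PFKP minus PFKM; EPAS1 minus HIF1A lies near -2.14 and SLC2A3 minus SLC2A1 near 1.87 in RASv12 samples.

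Other genes of the same pathways, 94 measured of 105 listed, were read from the same fit. The test called 21 higher and 14 lower and left 59 uncalled, which is 22.3% higher and 14.9% lower beside 14.0% and 15.5% of all genes, and their median change was 0.03. After scaling to the hybridization controls 40 were called higher and 4 lower. The count of 14 lower went to 8 without control replicate 2 and to 9 without control replicate 3, and the 35 called in all went to 23 without control replicate 3. The list closest to the set was that of 29 other hypoxia targets, of which 12 (41.4%) rose and 3 (10.3%) fell, with a median of 0.42. VEGFA, the angiogenic growth factor, read 96.9, 76.9 and 83.0 in control and 616, 608 and 554 in RASv12 samples, a log2 change of 2.60 ± 0.11 (limma adjusted p = 8.8e-06). BHLHE40, a transcriptional repressor of the circadian and hypoxia responses, rose by 2.65 ± 0.12 on the log2 scale. AK4, a mitochondrial adenylate kinase, read 29.4, 21.1 and 24.5 against 91.4, 97.0 and 103 and was called higher (limma adjusted p = 5.5e-05), with 2 of its 3 control samples under the background level, so no fold is given. LOX, the enzyme that crosslinks collagen, went the other way, with 527, 529 and 559 against 101.5, 90.1 and 92.2, a log2 change of -2.31 ± 0.096 (limma adjusted p = 9.3e-06). ANGPTL4, chosen after its value was seen as the largest rise of this list, was at least 13.9-fold higher. STC2 and WSB1, the remaining genes called lower, were also added after their values were seen. STC2, the largest fall, went from 529 ± 82.9 to 65.5 ± 14.8 (SD, n = 3), a log2 change of -2.72 ± 0.18 (limma adjusted p = 6.3e-05). WSB1 changed by -0.76 ± 0.11 (limma adjusted p = 0.0025). STC2 was called in all 17 alternatives and WSB1 in 16. Of the genes that rose, ERO1A, MXI1 and DDIT4, also added after their values were seen, were called in 11, 11 and 9. The others that rose kept their call in each alternative that measured them.

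In 13 other glycolysis genes 3 (23.1%) rose and 1 (7.69%) fell. BPGM, which makes 2,3-bisphosphoglycerate, read 46.2, 37.2 and 41.3 against 162, 249.7 and 167 and rose by 1.85 ± 0.17 (limma adjusted p = 2.5e-04), while PGM1 rose by 0.33 and PFKFB1 and PKLR were called at or near background. Each of PGM1, PFKFB1 and PKLR lost its call without control replicate 2 or 3 or RASv12 replicate 2 or 3, and PGM1 and PKLR also without RASv12 replicate 1. Of neighbouring routes of glucose carbon, none of 7 pentose phosphate genes rose and 2 (28.6%) fell, beside 14.0% and 15.5% of all genes. The 2 were TKT, the transketolase (-0.66 ± 0.094), and TALDO1, the transaldolase (-0.76 ± 0.12). TALDO1 stayed called and TKT did not after scaling to the hybridization controls. Of 7 glycogen genes 1 (14.3%) rose, near the 14.0% of all genes, and none fell. The riser was GYS1, the glycogen synthase, at 0.74 ± 0.094.

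In the mitochondrial lists 27.3% of 11 genes of pyruvate oxidation and 40.0% of 15 citric acid cycle genes were called, beside 29.5% of all genes. In pyruvate oxidation PDHX, the E3-binding subunit of pyruvate dehydrogenase, rose by 0.68 ± 0.10, PDK2 was called lower at -0.44 ± 0.13, and PC, pyruvate carboxylase, was at least 1.41-fold lower. In the citric acid cycle 2 genes (13.3%) rose and 4 (26.7%) fell, with a median of -0.14. IDH3A, a subunit of isocitrate dehydrogenase, rose by 0.95 ± 0.12, and the succinyl-CoA ligase subunits SUCLG2, SUCLG1 and SUCLA2 fell by 0.60, 0.56 and 0.50 on the log2 scale. PDK2 lost its call without control replicate 2 or 3 or any 1 RASv12 sample, and PC without any 1 control sample or RASv12 replicate 1. The falls of PDK2, PC and these 3 ligase subunits were not called after scaling to the hybridization controls. Among 12 HIF regulators 2 (16.7%) rose and 2 (16.7%) fell, beside 14.0% and 15.5% of all genes. Those that rose were ELOC (0.57 ± 0.094) and ELOB (0.31 ± 0.093), the elongins of the ubiquitin ligase that removes HIF alpha subunits. The coactivator CREBBP (-0.48 ± 0.11) and the HIF partner ARNT2 (-0.64 ± 0.17) were called lower, and neither was called after that scaling or without control replicate 2. ARNT2 had 2 of 3 RASv12 samples under the background level, and it also lost its call without control replicate 3 or RASv12 replicate 1 or 3. The call of ELOB was lost without any 1 of the control samples or without RASv12 replicate 1 or 2, and its sign turned when all of its probe sets were averaged.

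**Figure D5:**
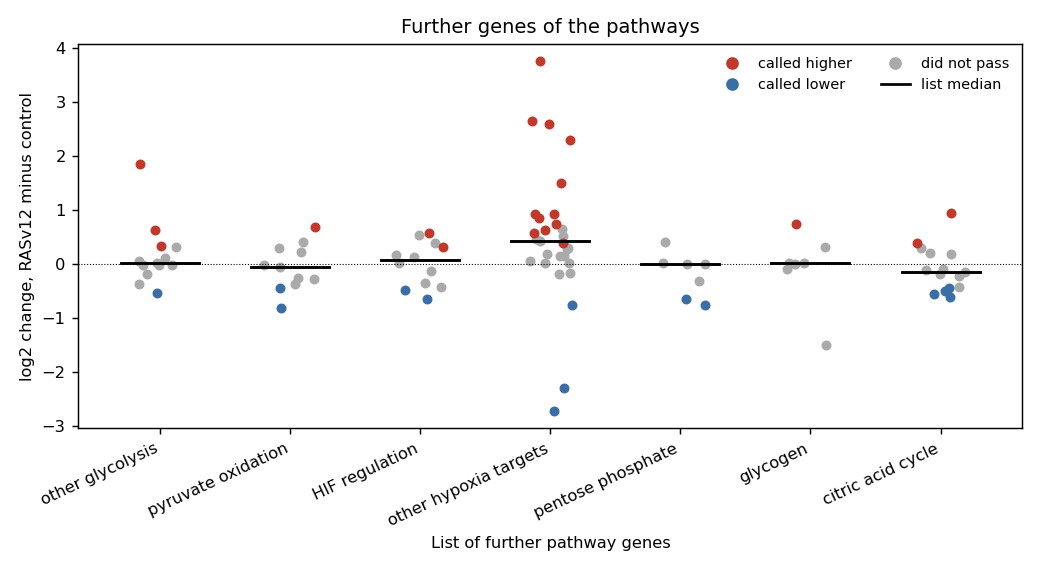
Log2 change, RASv12 minus control, of the 94 further pathway genes in 7 lists, coloured by call, with each list's median as a bar; horizontal scatter within a list has no meaning. The median is 0.42 for other hypoxia targets and -0.14 for the citric acid cycle.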

How the data were processed

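Total RNA from 6 samples was purified on columns, treated with DNase, amplified in 2 rounds and hybridised to arrays, per the labels' protocols. The authors deposited a single table of signal intensity on a linear scale. MAS5 made it, per the submitters' processing notes; the version is not given in the sources used here. Of 22283 probe sets, 68 controls were left out and 22215 tested; 19065 had 1 gene symbol, 1043 several and 2107 none, and only the first were named. Values were transformed as log2(deposited intensity + 16), which compresses changes of dim genes, quantile-normalized, and tested with limma 3.58.1 in R 4.3.3 over 1 probe set for each of 11963 genes, with Benjamini-Hochberg adjustment and a threshold of 0.05. Probe sets of the same gene were read from a separate limma fit over all probe sets. Where all 3 samples of a group lay at or under 27.98, the highest of 27 low bacterial control probe sets on any array, the fold is given as "at least", the brighter group's mean log2 against that level, with no fold where neither group exceeded it; probe sets of that kind give no second reading of a gene, and pairs holding a gene at that level in a whole group are given no size, as set after seeing the data. The procedure was tested on simulated data. Amplification may compress or bias differences, and the number of arrays limits the precision. The genes and lists were chosen with earlier results of these data known. All listed genes are accounted for, and of each further list up to 4 called genes with the largest moderated t are named, apart from those marked in the text. Alternatives were other scalings, pseudocounts, filters and probe set rules, the replicate number as a block, and each sample left out; 2 more, another rule for the brightest probe set and a fit over all probe sets, were chosen after seeing the data.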

Additional observations from a re-analysis of the deposited data

How the results depend on the processing

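Across 17 alternatives 11 of the 18 called genes kept their call in each one that measured them (HK2, SLC2A3, BNIP3, BNIP3L, ENO2, PFKFB3, ALDOC, EGLN1, GPI, PGK1 and EPAS1), and 7 lost it in at least 1 (HK1, PGAM1, TPI1, HIF1A, ADM, CA12 and KDM3A). Scaling to hybridization controls gave 1 of the 33 genes lower, 2827 genes higher and 1053 lower over all genes, 40 further genes higher and 4 lower, and medians of 0.66 for the 33 genes and 0.20 for all genes. With a pseudocount of 1, 1 of the 33 genes was called lower, as HIF1A, TPI1, PGAM1, CA12 and ADM lost their calls. Without the dimmest 50% of probe sets the median of all genes was -0.0068. Leaving out 1 sample at a time gave 12 to 17 of the 33 genes called, 1 to 3 lower, 23 to 33 further genes called and 8 to 15 of them lower; without control replicate 2 or 3 the further genes called lower were 8 and 9, and without control replicate 3 the further genes called were 23. Over all probe sets, samples with the same replicate number did not deviate together (correlations of -0.23, -0.03 and -0.07). Whether a pairing by replicate number moved some of the genes was not tested by these correlations. With the replicate block 13 of the 33 genes were called, 11 higher and 2 lower. HK1, PGAM1, TPI1, HIF1A, CA12 and KDM3A lost their calls there, and PDK3 was called. Signs turned for ENO1 (0.058 with values as deposited, 0.084 with median centring, 0.40 with hybridization controls, 0.47 as the mean of its probe sets, and -0.049 to 0.064 with 1 sample left out). They also turned for SLC2A1 (0.0039 with median centring, 0.30 with hybridization controls, 0.074 as the mean, and -0.12 to 0.096 with 1 sample left out), LDHB (0.27 with hybridization controls), PKM (-0.26 as the mean), ELOB (-0.017 as the mean), EGLN3 (-0.11 to 0.12 with 1 sample left out) and NDRG1 (-0.023 to 0.22 with 1 sample left out). Of these genes ELOB was called in the main test, ENO1 after scaling to hybridization controls and as the mean of its probe sets, and PKM after scaling to hybridization controls; the cause of the turns was not tested. PFKFB4, near background, was called without control replicate 1. Values at or under the level of the low bacterial controls stayed in the tests, so calls could fall there, and no fold is given for them. PKLR, called lower and counted in the totals, and the second HK2 probe set, called higher, lay there in all 6 samples.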
